A study of Mus musculus with 6 samples.

Results

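The genes described here are the 9 that encode the core enzymes of leukotriene and prostaglandin synthesis and breakdown: Alox5, Alox5ap, Ltc4s and Lta4h of the leukotriene arm, Ptgs1, Ptgs2, Ptges and Hpgds of the prostaglandin arm, and Hpgd, which breaks prostaglandins down. They were taken by symbol from the 32285 gene rows of the files, and all 9 were found. Single-cell RNA sequencing had been run on cells isolated from mouse hearts as CD45+, that is, as leukocytes. The 6 libraries fell into 3 groups of 2: C57Bl6J wild-type mice given sham treatment, wild-type mice whose hearts received a single fraction of 12 Gy from a small-animal microirradiator, and mice labelled STING knockout (Tmem in the library titles) that received the same 12 Gy. All were collected at 28 days. No sham-treated knockout group was analysed here, so the knockout label was compared only among irradiated hearts, and the labels give no age or sex and no allele for the knockout. STING is a sensor adaptor of the innate immune response to cytosolic DNA. Whether the 2 libraries of a group are separate animals is not stated in the labels, so a p-value here speaks of the spread among libraries, which may be technical.

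Leukotrienes and prostaglandins are short-lived lipid signals that leukocytes make from arachidonic acid released from their membranes. The 5-lipoxygenase Alox5, helped by its membrane partner Alox5ap, makes leukotriene A4, which Lta4h turns into the neutrophil attractant leukotriene B4 and Ltc4s into the first of the cysteinyl leukotrienes, which raise vascular permeability. The cyclooxygenases Ptgs1 and Ptgs2 make prostaglandin H2, from which Ptges makes prostaglandin E2 and Hpgds makes prostaglandin D2, and Hpgd inactivates prostaglandins by oxidation.

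The 6 libraries held 4556 to 9319 barcodes and 31650962 to 59675213 UMIs (unique molecular identifiers, each counted as 1 transcript molecule), and 3394 to 6014 cells per library were kept. Median UMIs per kept cell were 4409 and 4588 in sham, 6373 and 5510.5 in irradiated wild type, and 6792 and 6186.5 in the libraries labelled knockout. Pairs of libraries shared 6 to 38 cell barcodes. Tmem173, the gene of STING, was at 39.9 and 32.9 CPM (a gene's UMIs scaled to a common total of the cells counted) in sham, 45.5 and 41.8 in irradiated wild type, and 40.4 and 43.1 in the libraries labelled knockout. Its level was therefore not lower in the libraries labelled knockout, and a 3' tag outside a deleted part does not check the label, so these libraries are named by their label throughout. The second sham library stood apart in neutrophil transcripts: the summed level of 10 neutrophil marker genes over all its kept cells was 36330 CPM, against 3580 to 11080 in the other 5 libraries.

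On the GRCm38 annotation, Ltc4s (ENSMUSG00000020377) lies on chromosome 11 at 50236461-50238616, minus strand, opposite the antisense gene Gm26542. Alox5 (ENSMUSG00000025701) lies on chromosome 6 at 116410077-116461178, and Hpgds (ENSMUSG00000029919) on the same chromosome at 65117293-65144908, both on the minus strand. Alox5ap (ENSMUSG00000060063) is on chromosome 5 at 149264767-149288153, plus strand, opposite the antisense gene Gm19719, and Lta4h (ENSMUSG00000015889) on chromosome 10 at 93453411-93484875, plus strand. Ptgs1 (ENSMUSG00000047250) and Ptges (ENSMUSG00000050737) are on chromosome 2 at 36230426-36252272 (plus) and 30889471-30929863 (minus). Ptgs2 (ENSMUSG00000032487) is on chromosome 1 at 150100031-150108227, and Hpgd (ENSMUSG00000031613) on chromosome 8 at 56294585-56321043, both on the plus strand. The sources used here do not say whether counting used strand, so reads of Ltc4s and Alox5ap and of their antisense partners cannot be told apart with certainty.

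The promoters shown are those of the 3 members whose level passed a test in the macrophage-like or endothelial-like class taken whole. Hpgds also passed, in T cell-like cells, and is not shown. The sequences are from RefSeq (GRCm38.p6), 5' to 3' on the strand of the gene and taken up to the start used there. For Ptgs2 that is the annotated start given above. The Hpgd stretch ends at 56294551, short of the annotated start at 56294585. The Ltc4s stretch is shorter because 84 bases that fall inside the annotated gene were left out. Capitals mark a GC box (GGGCGG or, on the other strand, CCGCCC).
Ltc4s, chr11:50238617-50238782, minus strand: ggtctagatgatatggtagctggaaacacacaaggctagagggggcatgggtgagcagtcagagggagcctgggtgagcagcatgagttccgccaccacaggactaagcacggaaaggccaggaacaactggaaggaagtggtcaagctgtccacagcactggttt
Hpgd, chr8:56294302-56294551, plus strand: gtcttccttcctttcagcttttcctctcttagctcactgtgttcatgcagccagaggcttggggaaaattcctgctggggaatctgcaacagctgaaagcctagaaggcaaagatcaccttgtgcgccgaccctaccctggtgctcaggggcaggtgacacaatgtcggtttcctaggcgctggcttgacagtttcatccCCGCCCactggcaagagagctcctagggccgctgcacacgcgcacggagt
Ptgs2, chr1:150099781-150100030, plus strand: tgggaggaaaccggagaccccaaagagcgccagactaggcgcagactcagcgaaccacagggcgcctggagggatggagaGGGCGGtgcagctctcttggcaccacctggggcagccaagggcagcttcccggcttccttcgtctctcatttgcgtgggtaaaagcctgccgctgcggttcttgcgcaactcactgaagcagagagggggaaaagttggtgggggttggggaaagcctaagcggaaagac
In the 250 bases before the RefSeq start, searched on both strands, GGGCGG was found at 1 position in Ptgs2, Hpgd and Alox5 and at 2 positions in Ptges, and 32.7% of 32851 mouse promoters of that length hold it. CCAAT was found at 2 positions in Lta4h (33.9% of promoters hold it). TATAAA (12.4% of promoters), CACGTG (6.02%), TGANTCA (6.75%) and TGACG (17.8%) were in none of the 8 member promoters with an entry. No motif of these 6 was in the Ltc4s window, searched with the 84 bases that are left out above. Alox5ap has no entry. These matches describe letters only.

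Cells were grouped by clustering without the 9 members, and clusters were named from marker genes, with the suffix -like because the names are rebuilt here. The classes used below held 10088 macrophage-like, 3706 neutrophil-like, 3441 B cell-like, 2077 endothelial-like, 1908 monocyte-like, 1696 T cell-like, 1246 NK cell-like, 675 dendritic cell-like and 469 fibroblast-like cells, and 81 mast cell- or basophil-like cells. Endothelial and fibroblast cells are not leukocytes, and UMIs of Ptprc, the gene of CD45, were found in 10.3 to 16.7% of endothelial-like cells per library against 72.8 to 85.5% of B cell-like cells. The macrophage-like class comprised cluster 2 (led by Tnf, Gdf15 and Ccl2), cluster 3 (Lilra5, Cx3cr1, Ms4a7), cluster 4 (Cd209f, Ccl8, Lyve1, Folr2, Timd4) and cluster 13 (Ifit3, Ifit2). UMIs of the macrophage genes C1qa, C1qb or C1qc were in 50.6 to 78.3% of T cell-like cells per library. The part of macrophage transcripts in the levels given for that class was not tested. Levels compared between classes are descriptions without a test, and each is a mean over the 6 libraries. Orders of classes in the text cover the classes listed here.

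**Figure D1:**
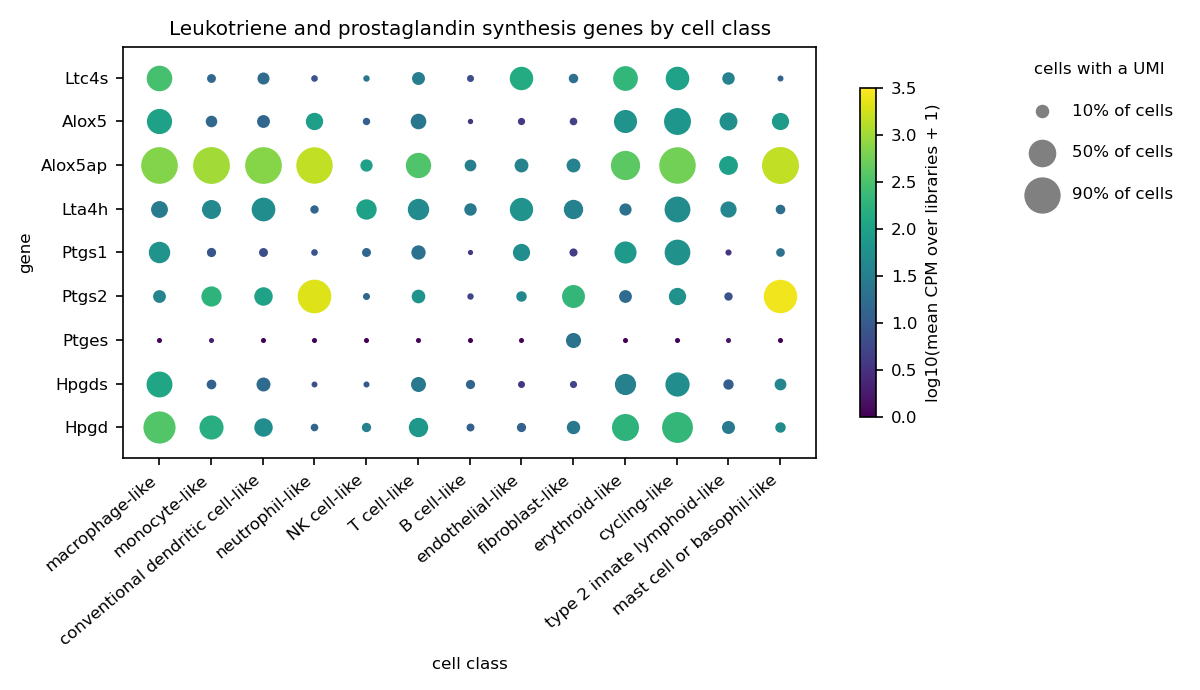
Level of each of the 9 genes (rows) in 13 cell classes (columns). The colour gives log10 of the mean CPM over libraries plus 1, and the size of a point the share of cells with a UMI. Ltc4s, Hpgds and Hpgd are highest in macrophage-like cells, Ptgs2 and Alox5ap in mast cell- or basophil-like and neutrophil-like cells, and Ptges in fibroblast-like cells.

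Alox5, the enzyme that starts the leukotriene pathway, was found in macrophage-like cells at 99.2 CPM ± 14.3 (SD, n = 6 libraries), in neutrophil-like cells at 88.9 ± 16.9 and in mast cell- or basophil-like cells at 79.6 ± 44.7. These 3 neighbours in the order did not differ beyond their spread. T cell-like (23.0 CPM), monocyte-like (13.9) and NK cell-like cells (10.1) followed, and endothelial-like (2.85) and B cell-like cells (2.51) were lowest. In macrophage-like cells Alox5 was at 108 and 99.7 CPM in sham, 75.2 and 90.2 in irradiated wild type, and 114 and 109 in the libraries labelled knockout. The irradiated wild-type libraries were the lowest 2 and overlapped neither other group, yet the difference did not pass the threshold in edgeR's quasi-likelihood test (log2 fold change against sham -0.30 ± 0.10 SE, adjusted p = 0.101, and labelled knockout against wild type 0.30 ± 0.10, adjusted p = 0.132). In neutrophil-like cells the 6 libraries lay between 66.2 and 104 CPM with all 3 groups overlapping.

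Alox5ap, the membrane partner that presents arachidonic acid to Alox5, was found in every myeloid class. Mast cell- or basophil-like (1484 CPM ± 295 SD) and neutrophil-like cells (1472 ± 69.8) were highest and did not differ beyond their spread. Monocyte-like cells (1042 ± 77.5) were lower by more than both SDs, and dendritic cell-like (726 ± 40.2) and macrophage-like cells (708 ± 45.2) came next and did not differ beyond theirs. T cell-like cells had 339 ± 53.2. NK cell-like cells had 93.9 CPM, and endothelial-like cells had 36.1. In neutrophil-like cells Alox5ap was at 1349 and 1549 CPM in sham, 1444 and 1494 in irradiated wild type, and 1516 and 1482 in libraries labelled knockout, and the groups overlapped. In macrophage-like cells the levels were 657 and 756, 723 and 762, and 685 and 668 CPM in the same order. The labelled-knockout libraries lay below both irradiated wild-type libraries there, with a log2 difference of -0.26 ± 0.09 that did not pass the test (adjusted p = 0.146).

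UMIs of both Alox5 and Alox5ap were found in 34.1 to 52.2% of macrophage-like cells per library and in 11.8 to 24.0% of neutrophil-like cells. UMIs of Alox5 and Ltc4s together were found in 19.5 to 33.0% of macrophage-like cells but in 0 to 0.777% of neutrophil-like cells. The neutrophil-like cells were shallower, with library medians of 1502 to 2392.5 UMIs against 4855 to 8409 in macrophage-like cells, so these shares also carry that gap.

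Lta4h, which makes leukotriene B4, had a different order. NK cell-like cells were highest at 101 CPM ± 5.60 (SD), followed by endothelial-like (62.6 ± 6.74), dendritic cell-like (51.1), T cell-like (45.5 ± 3.64) and monocyte-like cells (43.2 ± 4.04). The last 3 did not differ beyond their spread. Macrophage-like cells had 27.8 CPM ± 1.51 and neutrophil-like cells 13.1 ± 3.92, below NK cell-like cells in all 6 libraries. In endothelial-like cells Lta4h was at 54.5 and 55.5 CPM in sham, 71.0 and 62.0 in irradiated wild type, and 68.6 and 64.4 in libraries labelled knockout. Both sham libraries were lowest, but the difference did not pass the test (log2 0.28, adjusted p = 0.228), and Lta4h passed it in no class.

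Ltc4s, the synthase of leukotriene C4, was concentrated in macrophage-like cells, which made up 32.3% of the kept cells and held 65.4% of the gene's UMIs. There it was at 261 and 355 CPM in sham, 244 and 282 in irradiated wild type, and 318 and 277 in libraries labelled knockout. The groups overlapped, and the radiation difference was -0.21 ± 0.15 (adjusted p = 0.415). Ltc4s was at 6.89 CPM in neutrophil-like, 5.89 in B cell-like and 11.2 in mast cell- or basophil-like cells, and the last value rests on 3 UMIs.

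Within the macrophage-like class Ltc4s was far from even. Cluster 4, whose leading genes Lyve1, Folr2 and Timd4 are known for tissue-resident macrophages, had 490 and 657 CPM in sham, 642 and 690 in irradiated wild type, and 675 and 619 in libraries labelled knockout. Between 76.6 and 86.6% of its cells had a UMI. Cluster 2 had 73.3 to 120 CPM and cluster 3 had 79.0 to 104, so every library of cluster 4 was above every library of both. Cluster 4 took 33.0 and 36.3% of macrophage-like cells in sham, 18.6 and 22.5% in irradiated wild type, and 31.2 and 29.97% in libraries labelled knockout. The mean Ltc4s level of the whole class is therefore taken over a different mixture in irradiated wild type, and the part of that mixture in the class's level was not tested. A small cluster led by Prg4, Saa3, Cd5l and Marco, left unnamed because it carried markers of more than one lineage, had 1046 and 791 CPM in sham, 639 and 1027 in irradiated wild type, and 757 and 895 in libraries labelled knockout, with a UMI in 94.9 to 100% of its cells. Of those 6 values, 5 lay above every library of cluster 4. This small cluster held only 6 cells in the first sham library, the one at 1046 CPM.

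In endothelial-like cells Ltc4s rose after irradiation. It was at 22.6 and 26.9 CPM in sham, 199 and 200 in irradiated wild type, and 190 and 173 in the libraries labelled knockout. All 4 irradiated libraries lay above both sham libraries with a wide gap, and the irradiated wild-type and labelled-knockout libraries did not overlap each other but lay close. The log2 fold change was 3.0 ± 0.14 SE for irradiated wild type against sham (edgeR's quasi-likelihood test with Benjamini-Hochberg adjustment, adjusted p = 0.000148) and 2.80 ± 0.13 for labelled knockout against the same sham libraries (adjusted p = 0.000232). Between the irradiated groups it was -0.21 ± 0.11 (adjusted p = 0.588). Ltc4s was the only one of the 6 members tested in these cells to pass the test for radiation, where 3.12% of 11262 genes passed. Without the first sham library Ptgs2 passed as well (2 members), and without the second irradiated wild-type library Alox5ap, Ptgs1 and Hpgd did (4 members), so the count of 1 rests on those libraries while the Ltc4s call does not. DESeq2 called 3 members, Ltc4s, Ptgs1 and Ptgs2. An exact permutation test of 2 against 2 libraries, two-sided, cannot give a p below 0.333.

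The rise was in the share of cells as well as in the level. A Ltc4s UMI was found in 9.57 and 8.66% of endothelial-like cells in sham, 54.1 and 46.2% in irradiated wild type, and 46.9 and 44.4% in libraries labelled knockout. Cells with 2 or more UMIs made up 2.48 and 4.18%, 36.1 and 30.9%, and 29.9 and 31.8% in the same order. Thinned to 2000 UMIs per cell, the group means of the share were 2.82%, 27.2% and 20.8%. B cell-like cells, which should lack the gene, had a UMI in 1.40 to 2.47% of cells at library medians of 2054.5 to 4110 UMIs, against medians of 4694.5 to 7218 in endothelial-like cells. Cluster 5 of the endothelial-like class, led by the capillary genes Gpihbp1 and Fabp4, had 20.8 and 31.8 CPM in sham, 205 and 223 in irradiated wild type, and 199 and 182 in libraries labelled knockout. Cluster 21, led by Mmrn1, Cytl1 and Npr3, had 27.9 and 11.7, 15 and 61.4, and 58.2 and 26.6 CPM, with overlapping groups and 4 cells in the first irradiated wild-type library.

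**Figure D2:**
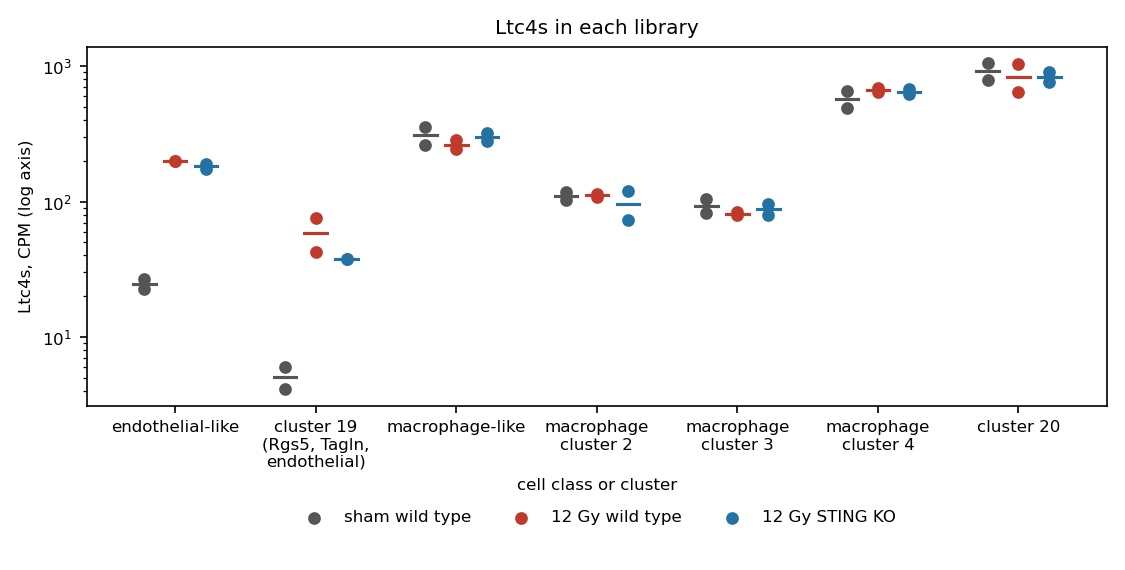
Ltc4s level in CPM (log axis) in endothelial-like cells, cluster 19 (Rgs5 and Tagln with endothelial markers), macrophage-like cells, their clusters 2, 3 and 4, and cluster 20 (Prg4, Saa3). Each point is 1 library, the colour gives its group and the horizontal line is the group mean. In endothelial-like cells the sham libraries sit at 22.6 and 26.9 CPM and the 4 irradiated libraries between 173 and 200, while the macrophage-like groups overlap.

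Macrophage transcripts were also measured in the endothelial-like cells. UMIs of C1qa, C1qb or C1qc were in 29.4 and 40.6% of endothelial-like cells in sham, 45.4 and 49.7% in irradiated wild type, and 65.9 and 64.8% in libraries labelled knockout. In B cell-like cells the same shares were 22.8 and 35.5%, 33.4 and 50.1%, and 60.7 and 60.1%. The summed level of 10 macrophage markers in endothelial-like cells was 341 to 533 CPM in sham, 258 to 587 in irradiated wild type and 343 to 355 in libraries labelled knockout, so the groups overlapped. Over the 9 of those markers tested, the median log2 change with radiation was 0.09 against -0.023 over all genes. Among endothelial-like cells with no Ptprc and no C1q UMI, the radiation change of Ltc4s was 3.37 (adjusted p = 1.04e-05).

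Whether the radiation effect differed between endothelial-like and macrophage-like cells was tested as an interaction, a comparison added after the class values were known. For Ltc4s the difference in log2 effect was 3.21 ± 0.15 SE (adjusted p = 3.41e-06), and for Ptgs2 it was -2.58 ± 0.47 (adjusted p = 0.0195), where 2.17% of 13764 genes passed. For Ptgs1 it was -0.92 (adjusted p = 0.162). The Ptgs2 difference did not pass without the first irradiated wild-type library (-2.49, adjusted p = 0.0615).

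Ltc4s also passed the test once in NK cell-like cells, on few molecules. Its UMI counts there were 4 and 25 in sham, 2 and 2 in irradiated wild type, and 40 and 15 in libraries labelled knockout, or 6.83 and 31.8, 2.80 and 3.66, and 68.2 and 22 CPM, and 2 of the 3 groups overlapped. Cells with a UMI numbered 1 to 5 per library. The labelled-knockout libraries exceeded irradiated wild type by 3.57 ± 0.83 on the log2 scale (adjusted p = 0.0439), the only one of 4 members tested to pass where 1.47% of 6998 genes did. The call was lost without the first labelled-knockout library (adjusted p = 0.365), without either irradiated wild-type library (0.11 and 0.053), with doublets kept (1.57, adjusted p = 0.111), and with the 4 irradiated libraries fitted alone (3.58, adjusted p = 0.0615). No member passed for the label among NK cell-like cells without C1q UMIs. In edgeR's test 0 of the 4 members passed for radiation or for labelled knockout against sham in this class, where 0.557% and 0.643% of genes passed (3 and 1 members at an unadjusted p under 0.05, and 0 and 0 by DESeq2).

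Ptgs1, the constitutive cyclooxygenase, had means of 61.1 CPM ± 5.37 (SD) in macrophage-like and 49.6 ± 21.7 in endothelial-like cells. The order of these classes changed with the group. Endothelial-like cells were above macrophage-like cells in both sham libraries and below them in all 4 irradiated ones, so the wide SD spans the groups. T cell-like cells had 18.9 CPM, NK cell-like cells 12.7, neutrophil-like cells 7.42 and B cell-like cells 2.55. In macrophage-like cells Ptgs1 was at 62.4 and 68.7 CPM in sham, 57.8 and 52.8 in irradiated wild type, and 63.2 and 61.6 in libraries labelled knockout, and the radiation difference of -0.23 did not pass (adjusted p = 0.168). In endothelial-like cells it was at 74.5 and 75.9, 19.9 and 45.5, and 41.7 and 40.2 CPM. Both sham libraries were above all 4 irradiated ones, with a log2 difference of -1.14 ± 0.30 that did not pass (adjusted p = 0.0773). The class mixes cluster 5 with the small cluster 21, which had 105 to 270 CPM of Ptgs1 per library. Cluster 21 supplied 42 of 282 and 47 of 335 endothelial-like cells in sham, 4 of 183 and 33 of 320 in irradiated wild type, and 29 of 633 and 18 of 324 in libraries labelled knockout. Within cluster 5 Ptgs1 was at 40.1 and 29.7 CPM in sham, 16.9 and 27.3 in irradiated wild type, and 30.2 and 25.7 in libraries labelled knockout. The first labelled-knockout library lay between the sham libraries there and both irradiated wild-type libraries lay below them, and the radiation difference was -0.61 (adjusted p = 0.18). The part of the changed mixture in the class's level was not tested. The cluster led by Prg4 and Saa3 had 182 to 323 CPM, above every library of cluster 5 and overlapping cluster 21.

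Ptgs2, the inducible cyclooxygenase, belonged to neutrophil-like and mast cell- or basophil-like cells. The neutrophil-like class held 41.8% of all Ptgs2 UMIs, and 76.6% of its cells had one. Its level was 1900 and 1333 CPM in sham, 3054 and 1830 in irradiated wild type, and 1935 and 2185 in libraries labelled knockout. The first irradiated wild-type library was highest, the second fell inside the sham range, and the radiation difference of 0.55 ± 0.23 did not pass (adjusted p = 0.687). Mast cell- or basophil-like cells had 1922 to 3876 CPM over 5 to 22 cells per library, a range that covers most of the neutrophil-like one. Fibroblast-like (204 CPM ± 124 SD) and monocyte-like cells (181 ± 29.8) came next and did not differ beyond their spread, and B cell-like cells were lowest at 4.21.

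In macrophage-like cells Ptgs2 rose after irradiation and was lower in the libraries labelled knockout, on low levels. It was at 34.7 and 23.1 CPM in sham, 44.8 and 57.1 in irradiated wild type, and 24.3 and 36.6 in libraries labelled knockout, with a UMI in 6.94 to 12.6% of cells. Both irradiated wild-type libraries were above all 4 others, and the sham and labelled-knockout libraries overlapped. The log2 fold change was 0.85 ± 0.21 for radiation (adjusted p = 0.0385), -0.87 ± 0.21 for labelled knockout against irradiated wild type (adjusted p = 0.0487) and -0.02 for labelled knockout against sham (adjusted p = 0.965). Of the 8 members tested in these cells, Ptgs2 alone rose and Hpgd alone fell with radiation, where 8.67% of 12159 genes passed in either direction, and Ptgs2 alone fell with the label, where 3.97% passed. Cluster 4 by itself gave 1.05 ± 0.21 (adjusted p = 0.0254) and -1.36 ± 0.20 (adjusted p = 0.00572), where 1.66% and 1.53% of 10844 genes passed. Neither comparison passed in the other 3 clusters. Their radiation differences were 0.69 (cluster 2, adjusted p = 0.243), 0.10 (cluster 3, adjusted p = 0.915) and 0.22 (cluster 13, adjusted p = 0.926), and their label differences were -0.37 (adjusted p = 0.582), -0.21 (adjusted p = 0.8) and -0.84 (adjusted p = 0.425).

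Those 2 calls depended on single libraries and settings. The radiation call was lost without the second sham library (0.60, adjusted p = 0.171) or the second irradiated wild-type library (0.66, adjusted p = 0.148), and the label call without the second irradiated wild-type (-0.67, adjusted p = 0.2) or the first labelled-knockout library (-0.61, adjusted p = 0.32). Both were lost at a mitochondrial limit of 5% (adjusted p = 0.512 and 0.418) and with coarser clustering at Leiden resolution 0.5 (0.107 and 0.102), and the label call also with doublets kept (0.0516). In cluster 4 the label call was lost without the second irradiated wild-type or the second labelled-knockout library, and the radiation call without either irradiated wild-type library. Neutrophil transcripts and handling-induced genes stand beside these values. S100a8 or S100a9 UMIs were in 10.8 and 69.3% of macrophage-like cells in sham, 9.25 and 29.9% in irradiated wild type, and 45.2 and 50.6% in libraries labelled knockout, and the summed level of the 10 neutrophil markers was 256 to 325, 108 to 196, and 197 to 212 CPM in the same order. Over the 8 of them tested, the median log2 change was -0.91 with radiation and 0.26 with the label. Among macrophage-like cells without those UMIs the radiation change was 0.73 (adjusted p = 0.125) and the label change -0.86 (adjusted p = 0.102). Of 20 genes induced by cell dissociation, 10 fell and 0 rose in labelled-knockout libraries compared with irradiated wild type (Fos, Junb, Atf3 and Dusp1 among them), with a median of -0.49 against -0.0044 over all genes. Their summed level was 26350 to 28380 CPM in sham, 22740 to 27310 in irradiated wild type and 18860 to 21890 in libraries labelled knockout, and their part in the Ptgs2 values was not tested.

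**Figure D3:**
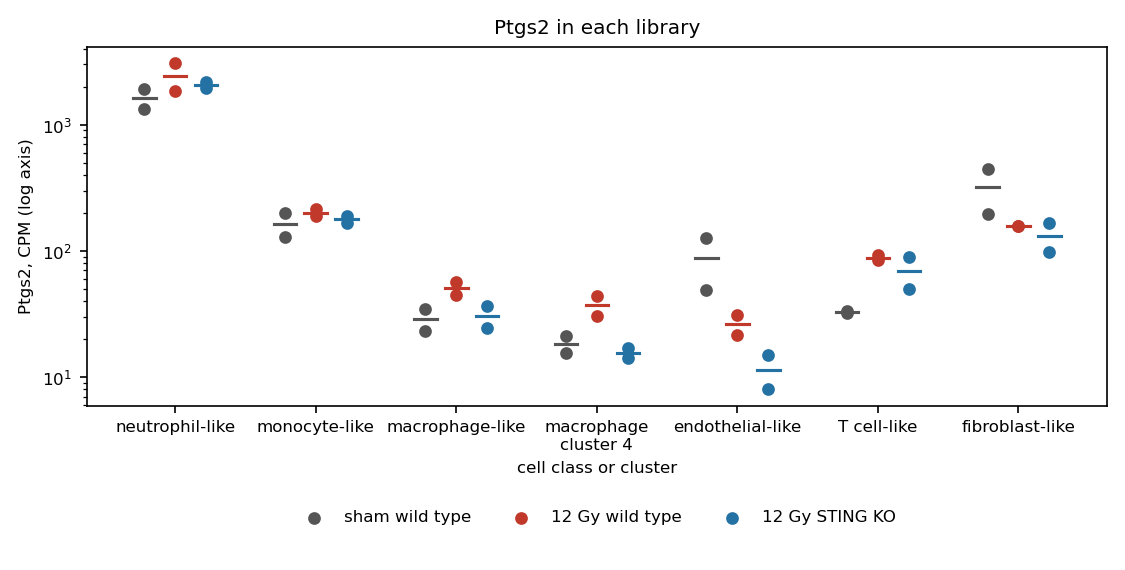
Ptgs2 level in CPM (log axis) in neutrophil-like, monocyte-like and macrophage-like cells, macrophage cluster 4, and endothelial-like, T cell-like and fibroblast-like cells. Each point is 1 library, the colour gives its group and the horizontal line is the group mean. The macrophage-like irradiated wild-type libraries (44.8 and 57.1 CPM) lie above the other 4, and in endothelial-like cells the second sham library (126 CPM) is the highest.

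In endothelial-like cells Ptgs2 was at 48.8 and 126 CPM in sham, 21.4 and 30.8 in irradiated wild type, and 8.01 and 15 in libraries labelled knockout. The 3 groups did not overlap. It fell in the libraries labelled knockout against sham (-3.09 ± 0.48, adjusted p = 0.0172), together with the Ltc4s rise making 2 of 6 members where 5.67% of 11262 genes passed (4 members without either irradiated wild-type library), whereas the radiation difference of -1.73 ± 0.47 did not pass (adjusted p = 0.081). The summed level of the 10 neutrophil markers in these cells was 1215 and 11860 CPM in sham. It was 643 and 586 in irradiated wild type, and 457 and 757 in libraries labelled knockout. Both sham libraries were highest here too, but the irradiated groups overlapped, unlike for Ptgs2. Of these markers, Camp was at 0 in 5 of the 6 libraries and at 1 UMI in the first labelled-knockout library. The summed level of the 20 genes induced by cell dissociation was 24440 and 20520 CPM in sham. It was 14570 and 23590 in irradiated wild type, and 16420 and 15560 in libraries labelled knockout. Here the labelled-knockout libraries lay below sham, while the irradiated wild-type libraries overlapped both groups. The part of neutrophil transcripts and of these handling-induced genes in the Ptgs2 values was not tested. The call was lost without the second sham library (-2.18, adjusted p = 0.0705) and without the first (-2.62, adjusted p = 0.154) or second labelled-knockout library (-3.52, adjusted p = 0.11), at a mitochondrial limit of 5% (adjusted p = 0.0578) and in cluster 5 alone (-2.56, adjusted p = 0.104). Among endothelial-like cells without Ptprc or C1q UMIs the change was -0.66 (adjusted p = 0.784), and the radiation difference had the opposite sign (1.00, adjusted p = 0.507).

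T cell-like cells gave another pair of calls, Ptgs2 up and Hpgds down. Ptgs2 was at 33.4 and 32.3 CPM in sham, 93.0 and 84.0 in irradiated wild type, and 50.2 and 89.0 in libraries labelled knockout, and both irradiated groups lay above sham (radiation 1.38 ± 0.21, adjusted p = 0.0126). Hpgds was at 31.9 and 40.4, 17.4 and 17.8, and 23.7 and 20.6 CPM, with both sham libraries highest (-1.09 ± 0.20, adjusted p = 0.0245). These were 2 of 8 members tested where 1.3% of 10115 genes passed. Neither passed without either sham library, and Hpgds did not without the second irradiated wild-type library. At a mitochondrial limit of 5% neither passed (adjusted p = 0.435 for Ptgs2 and 0.134 for Hpgds), and DESeq2 called Ptgs2 and gave no adjusted p for Hpgds. Macrophage transcripts were frequent in this class. The summed level of the 10 macrophage markers was 4123 and 5342 CPM in sham, 5424 and 4978 in irradiated wild type, and 6151 and 4226 in libraries labelled knockout, against 21740 to 23220 per library in macrophage-like cells. The 8 T cell markers summed to less, at 2028 and 2061 CPM in sham, 1500 and 1216 in irradiated wild type, and 1813 and 2003 in libraries labelled knockout, so the irradiated wild-type libraries were lowest. C1q UMIs were in 50.6 and 60.6% of its cells in sham, 67.8 and 73.9% in irradiated wild type, and 78.3 and 72.9% in libraries labelled knockout. Without the cells that had them, neither gene passed the filter on low counts, and the part of these transcripts in both calls was not tested further. For the label and for labelled knockout against sham, 0 of the 8 members passed in edgeR's test in T cell-like cells, where 0.702% and 0.712% of genes passed (1 and 4 members at an unadjusted p under 0.05, and 0 and 0 by DESeq2).

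Ptges, the inducible synthase of prostaglandin E2, was found mainly in fibroblast-like cells, on 146 UMIs in all kept cells. Fibroblast-like cells held 48.6% of them, at 25.9 and 12.0 CPM in sham, 27.1 and 17.1 in irradiated wild type, and 16.6 and 22.5 in libraries labelled knockout, and the 3 groups overlapped. UMIs of both Ptgs2 and Ptges were in 3.70 to 6.52% of fibroblast-like cells per library, which is 2 to 5 cells. The cluster led by Prg4 and Saa3 had 4.3 to 22.3 CPM of Ptges, on 2 to 10 UMIs per library, and macrophage-like cells had 0.12. The highest of these values rests on 2 UMIs in the 6 cells of the first sham library. No UMI was found in B cell-like, NK cell-like, dendritic cell-like or mast cell- or basophil-like cells.

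Hpgds, the leukocyte synthase of prostaglandin D2, was mostly a macrophage gene, with 72.4% of its UMIs in that class. It was at 144 and 122 CPM there in sham, 109 and 81.9 in irradiated wild type, and 119 and 126 in libraries labelled knockout. The irradiated wild-type libraries were the lowest and overlapped neither other group, but the difference of -0.46 ± 0.13 did not pass (adjusted p = 0.0564). In cluster 2 alone it did, at -0.54 ± 0.12 (adjusted p = 0.0247), where 3.44% of 10521 genes passed, but not without the first sham or the second irradiated wild-type library. Mast cell- or basophil-like cells had 39.0 CPM ± 31.2 (SD) on 11 UMIs, and neutrophil-like cells 6.43. The difference of the label effect between neutrophil-like and macrophage-like cells was -1.97 ± 0.54 for Hpgds (adjusted p = 0.0522), and none of the 8 members tested passed that comparison for radiation or the label in edgeR's test (0.562% of 11926 genes passed for the label and 1.33% for radiation). At an unadjusted p under 0.05 there were 3 members for the label and 1 for radiation.

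Hpgd, the dehydrogenase that inactivates prostaglandins, fell in irradiated macrophage-like cells. It was at 528 and 452 CPM in sham, 261 and 237 in irradiated wild type, and 352 and 294 in libraries labelled knockout. The 3 groups did not overlap: sham was highest, irradiated wild type lowest and the libraries labelled knockout lay between. The log2 fold change was -0.96 ± 0.11 SE for radiation (adjusted p = 0.00124), -0.70 ± 0.11 for labelled knockout against the same sham libraries (adjusted p = 0.00485) and 0.25 ± 0.11 between the irradiated groups, which did not pass (adjusted p = 0.209). Labelled knockout against sham gave this 1 call among 8 members, where 6.94% of genes passed, and it was lost without the second labelled-knockout library (adjusted p = 0.0671) and at a mitochondrial limit of 5% (adjusted p = 0.0513).

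The share of macrophage-like cells with a Hpgd UMI moved the same way, from 79.8 and 78.9% in sham to 61.6 and 55.8% in irradiated wild type, and 72.6 and 67.4% in libraries labelled knockout. Thinned to 2000 UMIs per cell it was 59.1 and 55.0%, 35.6 and 34.4%, and 44.1 and 40.9%. Median depth ran the other way, at 4855 and 5161 UMIs per macrophage-like cell in sham and 5694 to 8409 in the irradiated libraries. B cell-like cells had a Hpgd UMI in 1.75 to 3.23% of cells.

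The fall of Hpgd was present in each of the 3 large macrophage-like clusters taken by itself. Cluster 2 had 408 and 346 CPM in sham, 230 and 217 in irradiated wild type, and 283 and 246 in libraries labelled knockout (radiation -0.76 ± 0.10, adjusted p = 0.00106). Cluster 3 had 689 and 533, 317 and 292, and 417 and 335 CPM (-1.01 ± 0.13, adjusted p = 0.000875, where 3.49% of 9732 genes passed). Cluster 4, the Lyve1 and Timd4 cluster, had 557 and 496, 311 and 282, and 372 and 315 CPM (-0.85 ± 0.11, adjusted p = 0.00231). In all 3 clusters every sham library was above every irradiated library, and the labelled-knockout libraries lay above the irradiated wild-type ones in the same cluster. The interferon-gene cluster 13, which took 1.90 and 2.46% of macrophage-like cells in sham, 23.1 and 14.0% in irradiated wild type, and 4.36 and 9.03% in libraries labelled knockout, had 299 and 399, 206 and 152, and 256 and 215 CPM, and its difference of -0.95 ± 0.22 did not pass (adjusted p = 0.142). Only 0.159% of 8186 genes passed in that cluster.

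**Figure D4:**
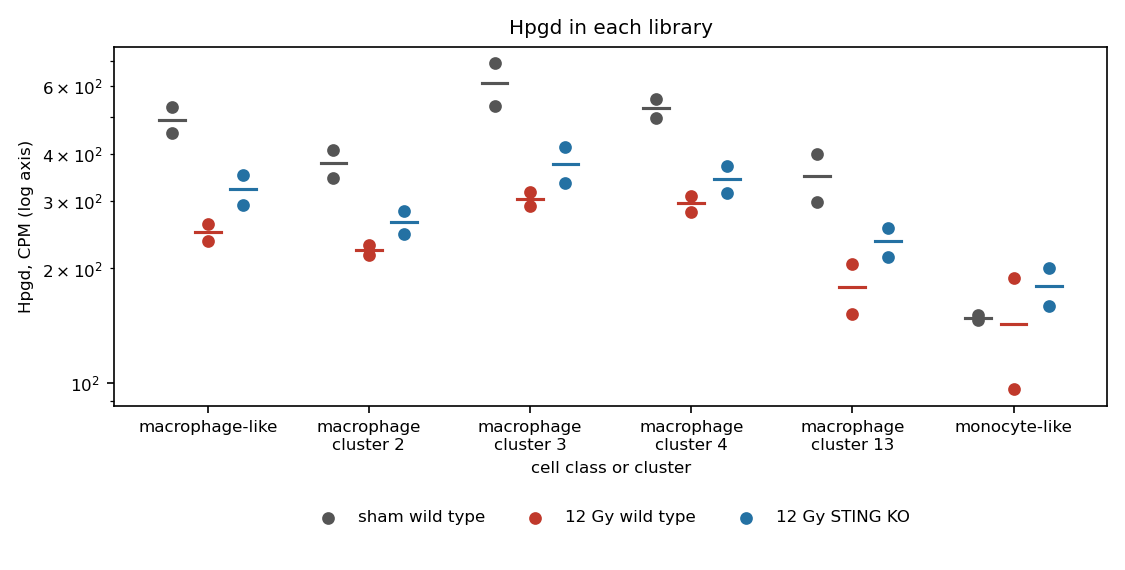
Hpgd level in CPM (log axis) in macrophage-like cells, their clusters 2, 3, 4 and 13, and monocyte-like cells. Each point is 1 library, the colour gives its group and the horizontal line is the group mean. In clusters 2, 3 and 4 both sham libraries lie above all 4 irradiated libraries and the irradiated wild-type libraries are lowest, while the monocyte-like groups overlap.

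Among the other classes tested Hpgd was highest in monocyte-like cells, at 147 and 151 CPM in sham, 189 and 96.5 in irradiated wild type, and 201 and 160 in libraries labelled knockout. The irradiated wild-type libraries lay on both sides of sham, and the difference was -0.06 (adjusted p = 0.976). Over all kept cells the radiation difference of Hpgd was -0.96 with an adjusted p of 0.0832. None of the 9 members passed there in any of the 3 comparisons in edgeR's test, where 0.0127%, 0.0191% and 0.0445% of 15748 genes did (radiation, the label, and labelled knockout against sham). At an unadjusted p under 0.05 the counts over all kept cells were 4, 1 and 1 members, and DESeq2 called 3, 0 and 1.

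**Figure D5:**
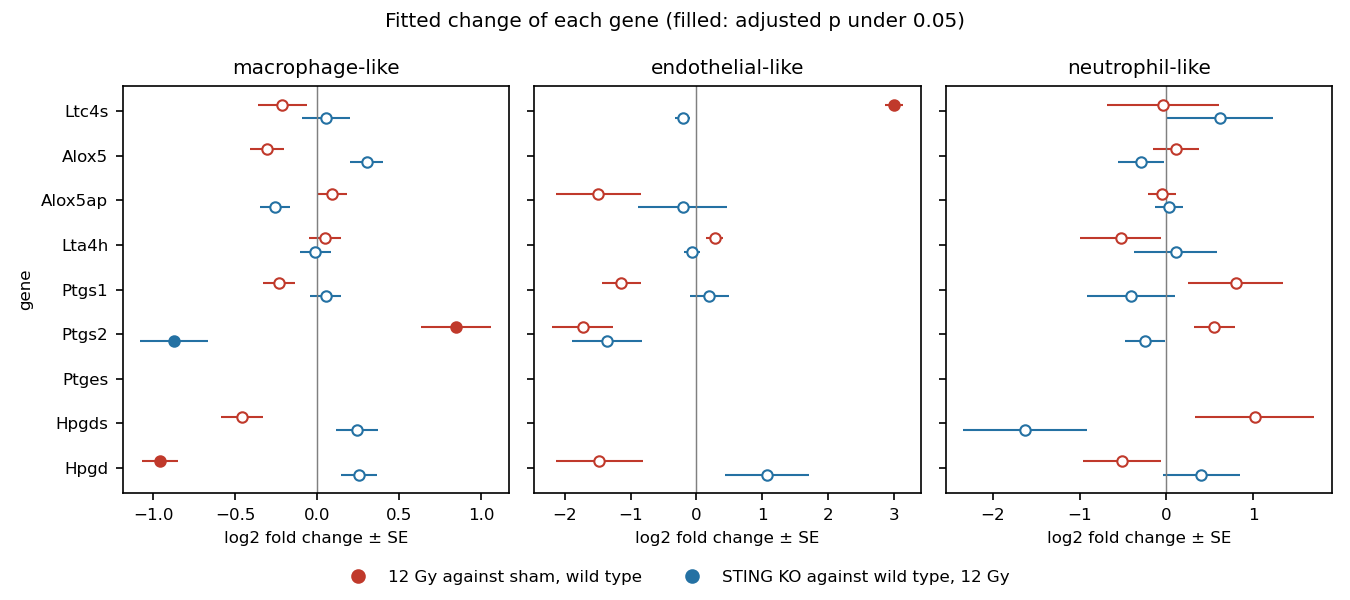
Log2 fold change of each member tested in macrophage-like, endothelial-like and neutrophil-like cells, for irradiated wild type against sham (red) and labelled knockout against irradiated wild type (blue). Bars are standard errors, filled points passed the test at an adjusted p under 0.05, and each panel has its own scale. The filled red points are Ptgs2 (0.85) and Hpgd (-0.96) in macrophage-like cells and Ltc4s (3.0) in endothelial-like cells, and the filled blue point is Ptgs2 (-0.87) in macrophage-like cells.

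No member passed in edgeR's test in neutrophil-like (0.0157%, 0.283% and 0.189% of 6359 genes passed in the 3 comparisons), monocyte-like (0.0688%, 0.676% and 0.539% of 8726), B cell-like (0%, 0.079% and 0.147% of 8857), dendritic cell-like (0.0123%, 0.0861% and 0.234% of 8129) or fibroblast-like cells (0.0119%, 0.0594% and 0.0712% of 8423). Hardly any gene passed in these classes, so the members' counts there are no result about them. At an unadjusted p under 0.05 between 0 and 3 members were found in each, and DESeq2 called 0 in each except 1 in fibroblast-like cells for labelled knockout against sham. In fibroblast-like cells Ltc4s was at 1.23 and 1.33 CPM in sham, 10.2 and 31.3 in irradiated wild type, and 58.6 and 8.44 in libraries labelled knockout. Both sham libraries were lowest there, on 2 UMIs in all, and the radiation difference did not pass (adjusted p = 0.486). Endothelial-like cells gave 0 of 6 members for the label, where 0.0355% of genes passed, with 1 member at an unadjusted p under 0.05 and 0 by DESeq2.

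Another 49 genes of the eicosanoid pathway were followed as a list that holds no member. In macrophage-like cells 30 of them were tested, and 4 rose and 3 fell with radiation, where 8.67% of all genes passed in either direction, with a median log2 change of 0.06 against -0.0027 over all genes. Of 6 receptors tested 3 rose: Ltb4r1, the high-affinity receptor of leukotriene B4, went from 1.59 and 2.06 CPM in sham to 6.56 and 6.87 in irradiated wild type, with 3.53 and 6.38 in libraries labelled knockout (1.88 ± 0.34, adjusted p = 0.00956). The prostacyclin receptor gene Ptgir (1.53 ± 0.33, adjusted p = 0.0213) and the prostaglandin E2 receptor gene Ptger2 (1.42 ± 0.35, adjusted p = 0.0369) also rose, each from levels below 2 CPM in sham. Cyp4f18, a hydroxylase of leukotriene B4, rose by 0.88 ± 0.15 (adjusted p = 0.00755).

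The secreted phospholipase gene Pla2g2d fell, from 118 and 60.7 CPM in sham to 29.4 and 37.9 in irradiated wild type and 28.4 and 27.0 in libraries labelled knockout (-1.38 ± 0.25, adjusted p = 0.00981). Pla2g7, a hydrolase of platelet-activating factor, fell by 0.60 (adjusted p = 0.0164), and Cyp4f13 was the last to fall. Cysltr1, the receptor for cysteinyl leukotrienes, was the 1 listed gene of 30 to pass for the label, a share near the 3.97% of all genes that passed. It was at 72.0 and 71.9 CPM in sham, 73.0 and 67.9 in irradiated wild type, and 99.5 and 109 in libraries labelled knockout (0.44 ± 0.09, adjusted p = 0.0256). Both labelled-knockout libraries were above the other 4, which lay close together. Against sham, the libraries labelled knockout gave 6 rises and 2 falls in the list, where 6.94% of all genes passed, among them Pla2g4a, the cytosolic phospholipase that releases arachidonic acid (0.51 ± 0.12, adjusted p = 0.0374).

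In endothelial-like cells 27 of the 49 were tested, and 1 rose and 1 fell with radiation, where 3.12% of all genes tested passed in either direction. The thromboxane receptor gene Tbxa2r was at 34.9 and 41.2 CPM in sham, 66.9 and 66.6 in irradiated wild type, and 58.7 and 68.3 in libraries labelled knockout (0.81 ± 0.15, adjusted p = 0.0401). The 12-lipoxygenase Alox12 was at 42.1 and 38.3, 10.7 and 19.7, and 17.0 and 15.8 CPM (-1.34 ± 0.26, adjusted p = 0.0429). Neither gene's sham libraries overlapped the irradiated ones. The thromboxane synthase Tbxas1 had 132 CPM in macrophage-like cells and the prostacyclin synthase Ptgis 345 CPM in fibroblast-like cells.

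The genes whose mean level over 13 cell classes was most like that of each member are given by Pearson's r, as a description over classes that share the same 6 libraries. Ltc4s was most like Mertk (r = 0.943), a receptor for clearing dead cells, and Stard8 (0.926). Ptgs1 was most like Stab1 (0.947) and Lyve1 (0.921), with Ltc4s the third (0.879), so the only member among another member's 3 nearest genes was that one. Hpgds was most like C1qc (0.932), Myo5a (0.931) and C1qb (0.931), and Hpgd like Serpinb8 (0.965), Lgmn (0.965) and F13a1 (0.963). Alox5 was most like Lpcat2 (0.916), an enzyme of platelet-activating factor synthesis, and Alox5ap like Lilrb4a (0.967). Ptgs2 was most like Gm28192 (0.948) and Smim3 (0.93), Lta4h like Ppig (0.913), and Ptges like Maob (0.991).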

How the data were processed

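CD45+ cells of mouse hearts were profiled with the 10x 3' v3 kit, per the labels' protocols. The authors deposited whole UMI counts per gene and cell barcode for each of 6 libraries, not normalized. The submitters' processing notes name Cell Ranger 5.0.0, Seurat 3 and mm10 without roles, and counting options are not given in the sources used here. The members, gene lists and comparisons were chosen with earlier results of these data known.

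Barcodes with under 200 genes or over 10% mitochondrial UMIs (23.2 to 33.4% per library were over that limit) were removed, and then the top-scoring barcodes by scrublet, 98 to 321 per library at a rate that grows with the number of cells, because its automatic threshold marked 0 to 3. Cells were clustered with scanpy 1.11.5 (Python 3.11.15; 2000 variable genes, 30 components, 15 neighbours, Leiden resolution 1) with members and pathway genes left out. Clusters were named from marker lists. The ratio of 0.5 above which a cluster counted as mixed, and leaving the plasmacytoid and cardiomyocyte lists out of that rule, were chosen after the clusters were seen. Mixed and unnamed clusters (3074 and 1387 cells) and 1248 cycling cells entered no class test.

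Counts were summed per class and library and fitted with edgeR 4.0.16 (R 4.3.3; filterByExpr, TMM, quasi-likelihood test, all 6 libraries) over all genes, with Benjamini-Hochberg adjustment over all genes tested and a threshold of 0.05. The SE given with a log2 change is that change's absolute size divided by the square root of the test's F statistic. It was derived from the test and not fitted separately. Classes needed 20 cells in every library. Pathway genes outside the members were named if they passed the threshold with the largest changes, up to 6 per comparison. Cyp4f13 was named beyond those 6, and Tbxas1 and Ptgis were named by their level without a test. Likeness used genes reaching 20 CPM in 13 classes of 50 cells or more. The radiation fit was tested on simulated counts for the macrophage-like and all-cell sums only. That simulation used a fixed spread between libraries and changed only genes above a limit on mean counts. The smaller classes and the interaction tests were not simulated. DESeq2 1.42.0 and other settings were alternatives.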

Additional observations from a re-analysis of the deposited data

Results flagged for a closer look

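The radiation effect on Ltc4s differed between endothelial-like and macrophage-like cells by 3.21 on the log2 scale (adjusted p = 3.41e-06, edgeR's interaction test), with all 4 irradiated libraries above both sham libraries in endothelial-like cells and overlapping groups in macrophage-like cells. The same difference for Ptgs2 was -2.58 (adjusted p = 0.0195), and it did not pass without the first irradiated wild-type library. The endothelial-like radiation difference of Ptgs2 did not pass by itself (-1.73, adjusted p = 0.081 in edgeR's test). It had the opposite sign among cells without Ptprc or C1q UMIs. Neutrophil transcripts of the second sham library stand beside the endothelial-like values, and their part was not tested. Both comparisons were added after the class values were known.

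Ltc4s also appeared in a cluster that entered no class test, cluster 19, which is led by the mural genes Rgs5 and Tagln and carries endothelial markers. Its mean there was 59.0 CPM in irradiated wild type (75.9 and 42.2), against 4.1 and 6.0 in sham, and the libraries labelled knockout had 37.8 and 37.7.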

How the results depend on the processing

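The rise of Ltc4s in endothelial-like cells and the fall of Hpgd in macrophage-like cells with radiation passed the test under every alternative run. Of the counts of members called, 382 values under alternatives stayed within 1.5 times the first count and 76 did not. Single-gene tests, counts in single macrophage-like clusters and shares of cells were tallied together. Of those values 369 stayed the same, 28 passed newly, 36 no longer passed, 25 moved and 1 reversed. The 25 that moved were cluster counts or shares of cells, not single-gene tests. Beyond the construction of an alternative the cause was not tested. With no filter on low counts the counts were 2 (all kept cells, radiation), 1 (all kept cells, labelled knockout against sham), 2 (NK cell-like, radiation), 2 (NK cell-like, label), 4 (T cell-like, radiation), 1 (T cell-like, label), 4 (T cell-like, labelled knockout against sham), 5 (endothelial-like, radiation), 1 (endothelial-like, label), 4 (endothelial-like, labelled knockout against sham), 2 (fibroblast-like, radiation), 2 (fibroblast-like, labelled knockout against sham) and 4 (endothelial against macrophage difference, radiation). With DESeq2 they were 3 and 1 over all kept cells (radiation, labelled knockout against sham), 0 in NK cell-like cells for the label, 1 in T cell-like and 3 in endothelial-like cells for radiation, and 1 in fibroblast-like cells for labelled knockout against sham. With a mitochondrial limit of 5% they were 0 (NK cell-like, label), 0 (T cell-like, radiation), 1 (endothelial-like, labelled knockout against sham), and 1, 0 and 0 in macrophage-like cells (radiation, label, labelled knockout against sham). At Leiden resolution 0.5, where the Lyve1 macrophage cluster has no name, they were 2 (NK cell-like, label), 1 (T cell-like, labelled knockout against sham), 1 (endothelial-like, labelled knockout against sham) and 0 (macrophage-like, label). With doublets kept they were 0 for the label in NK cell-like and macrophage-like cells. With the 4 libraries compared alone they were 0 (NK cell-like, label), 1 (T cell-like, labelled knockout against sham) and 4 (endothelial-like, labelled knockout against sham). With RLE in place of TMM normalization, edgeR's test gave 1 for the difference of the label effect between neutrophil-like and macrophage-like cells.

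Cell subsets chosen after seeing the data gave 0 in NK cell-like cells (label) and 0 in T cell-like cells (radiation) without C1q UMIs, 1 and 0 in macrophage-like cells (radiation, label) without S100a8 or S100a9 UMIs, and 1 in endothelial-like cells (labelled knockout against sham), in cluster 5 alone as in cells without Ptprc or C1q UMIs. In the last subset the radiation difference of Ptgs2 in endothelial-like cells reversed to 1.00. Leaving out each library in turn gave counts of 0 to 1 (all kept cells and B cell-like, radiation; NK cell-like and monocyte-like, label; fibroblast-like, labelled knockout against sham; macrophage-like, label and labelled knockout against sham; neutrophil against macrophage difference, both contrasts), 0 to 3 (T cell-like, radiation), 0 to 2 (T cell-like, label and labelled knockout against sham), 1 to 3 (macrophage-like, radiation) and 1 to 4 (endothelial-like, radiation and labelled knockout against sham; endothelial against macrophage difference, radiation).

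Replicate numbers did not pair the libraries: same-numbered deviations correlated at -0.0115 (sham and irradiated wild type), 0.179 (sham and labelled knockout) and 0.0249 (the irradiated groups). With the replicate number as a block the counts became 2 in endothelial-like and 1 in T cell-like cells (radiation), and 0 in NK cell-like and 0 in macrophage-like cells (label). Genes under about 5 CPM, and classes with few cells per library, limit which calls can be made.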
